A study of Mus musculus with 10 samples.

Results

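The members described here are the genes of the Fgf, Bmp and Hedgehog signalling pathways on the array: numbered Fgf and Bmp genes, their receptors Fgfr1 to Fgfr4, Bmpr1a, Bmpr1b and Bmpr2, the BMP antagonists Nog, Chrd and Grem1, the BMP targets Id1 to Id4, and the Hedgehog genes Shh, Ihh, Dhh, Ptch1, Smo, Hhip and Gli1 to Gli3. They were chosen by symbol and not by measured values, although earlier results of these data were known. The rule left out 1 Fgf gene. In all, 52 of 18069 genes with a probe of a single symbol are members, on 64 probes. Where a gene has more than 1 probe, the one with the highest mean log2 level over the 10 arrays stands for it, and 12 members have another probe. Fgfr2 has no probe of its own and shares a probe with Parva. Of the 52 members 50 were tested, and Fgf20 and Bmp5, at background on all arrays, were not.

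Total RNA of 5 groups with 2 arrays each was hybridised to 1-colour CodeLink arrays. The first 2 groups are embryoid bodies (EBs), floating aggregates of differentiating Ainv18 mouse ES cells that carry a doxycycline-inducible bicistronic Pdx1-IRES-Ngn3 gene. Both were grown in serum-free medium that held 50 ng/ml activin A from day 2 to day 6. BMP4 (50 ng/ml) and bFGF (10 ng/ml) were present besides activin A between days 4 and 6, and RNA was taken on day 13. Dox+ EBs received 1 µg/ml doxycycline from day 4 and Dox- EBs received none, so that exogenous BMP4 and FGF2 (bFGF) reached both. The references are bTC6 cells, a mouse insulinoma line grown in medium with serum, whole islets, whose age the labels do not give, and whole E15.5 pancreas. Another entry of the EB labels names activated Notch4 as the inducible gene. The probes of Pdx1, Ngn3 and Notch4 did not pass the test between the EB groups (adjusted p = 0.553, 0.962 and 0.398), and whether they read the inducible transcript is not known. In the labels the 2 arrays of a group are biological replicates, with no mention of separate cultures or dissections, so p-values measure the spread between these samples only, which may be technical.

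A level is the scaled intensity of a probe, in units of the median probe of its array, so that 1 is the median. Levels under 0.27 were set to this floor. Between 28 and 46 of the 52 members were above background on an array. The model (limma) gave each group a mean, used the log2 levels of the 10 arrays together, and covered 28109 probes, over which p was adjusted by Benjamini-Hochberg. A member is called higher or lower at an adjusted p under 0.05. A fold is written as at least a value where the lower group had only background signal on the arrays that measured it. Tests compare groups for 1 probe and never probes with each other. Levels of different probes meet only in summed levels, against the array median and in choosing which members to print.

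FGFs are secreted ligands that signal through the tyrosine kinase receptors FGFR1 to FGFR4, except FGF11 to FGF14, the FGF homologous factors, which stay inside the cell, bind voltage-gated sodium channels and are best known from neurons. BMPs are ligands of the TGFβ superfamily that act through SMAD proteins and raise transcription of Id genes, and noggin, chordin and gremlin bind BMPs and block them. Hedgehog ligands bind PTCH1, which releases SMO to activate the GLI factors, and the genes of PTCH1, HHIP and GLI1 are themselves targets of the pathway. In the embryo, FGF10 of the mesenchyme keeps pancreatic progenitors dividing, Shh is kept out of the early pancreatic epithelium while the neighbouring gut expresses it, and BMP signals take part in the choice between liver and pancreas.

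Sequences 250 bases before to 50 bases after the transcription start were at hand from RefSeq (GRCm38.p6) for 37 of the 52 members, 46 promoters in all. Shown here are those of 3 Hedgehog genes that fell together with Dox, Hhip, Ihh and Ptch1, and of 2 BMP target genes that moved in opposite directions, Id2 and Id4. Capitals mark the palindrome GGCGCC, the GC-rich SMAD binding motif, and each sequence is written 5′ to 3′ on its own strand:
Hhip (chr8:80057959-80058258, minus strand): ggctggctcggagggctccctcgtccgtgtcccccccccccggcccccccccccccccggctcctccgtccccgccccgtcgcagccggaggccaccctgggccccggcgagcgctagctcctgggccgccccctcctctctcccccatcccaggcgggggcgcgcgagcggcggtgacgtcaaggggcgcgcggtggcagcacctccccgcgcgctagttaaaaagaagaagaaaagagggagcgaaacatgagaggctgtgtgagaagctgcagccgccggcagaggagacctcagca
Ihh (chr1:74951623-74951922, minus strand): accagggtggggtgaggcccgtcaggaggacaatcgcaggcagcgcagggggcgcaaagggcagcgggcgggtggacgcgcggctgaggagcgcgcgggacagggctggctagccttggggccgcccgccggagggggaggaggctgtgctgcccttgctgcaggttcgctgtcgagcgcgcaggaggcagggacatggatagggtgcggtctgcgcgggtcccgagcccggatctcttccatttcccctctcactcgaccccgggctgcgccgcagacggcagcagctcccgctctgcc
Ptch1 (chr13:63565686-63565985, minus strand): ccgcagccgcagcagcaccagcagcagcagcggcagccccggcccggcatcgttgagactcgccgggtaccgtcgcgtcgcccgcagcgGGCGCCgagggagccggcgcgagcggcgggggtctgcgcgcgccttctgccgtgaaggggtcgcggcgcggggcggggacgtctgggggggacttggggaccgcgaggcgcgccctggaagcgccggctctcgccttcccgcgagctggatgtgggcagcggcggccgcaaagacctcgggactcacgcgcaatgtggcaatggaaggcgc
Id2 (chr12:25096043-25096342, minus strand): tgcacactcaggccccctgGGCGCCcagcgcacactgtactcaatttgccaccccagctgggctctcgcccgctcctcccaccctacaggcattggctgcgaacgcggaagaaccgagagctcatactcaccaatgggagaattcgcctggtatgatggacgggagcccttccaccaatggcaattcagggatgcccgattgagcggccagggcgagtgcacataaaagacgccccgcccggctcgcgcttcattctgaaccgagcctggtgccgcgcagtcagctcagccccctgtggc
Id4 (chr13:48260866-48261165, plus strand): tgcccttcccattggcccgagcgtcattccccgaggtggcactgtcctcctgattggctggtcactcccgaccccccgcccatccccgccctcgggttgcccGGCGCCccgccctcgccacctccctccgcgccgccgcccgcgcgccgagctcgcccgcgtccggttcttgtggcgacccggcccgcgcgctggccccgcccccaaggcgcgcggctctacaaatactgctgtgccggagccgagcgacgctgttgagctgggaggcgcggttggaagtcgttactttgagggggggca
GGCGCC was present once in the promoters of Ptch1, Id2 and Id4 and in neither of those of Hhip and Ihh. Over all members it was found in 12 of 46 promoters (26.1%), of 10 genes, and in 11.9% of the 32851 promoters of the table. The run holds only G and C, and the promoters shown are 63.3% to 76.3% G and C. Base composition was not matched, so the 2 shares cannot be read as an enrichment. The GLI motif GACCACCCA, searched on both strands, was in none of the 46 member promoters and in 0.253% of all promoters. At so low a share, no match in 46 promoters cannot be told apart from the background. Promoters of Shh, Gli1 and Nog were not analysed here. A match is a run of letters and not a measured site.

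With doxycycline, 6 of the 9 Hedgehog members fell and none rose, all 4 FGF homologous factors rose, and the BMP members moved both ways. Of the 50 tested members 15 were higher in Dox+ than without Dox and 11 were lower, 30.0% and 22.0%, where over all probes 20.7% were called higher and 22.5% lower, so the share that fell is near the background. The median log2 difference was -0.046 over the members and -0.034 over all probes. Among 23 FGF members 9 rose and 3 fell, and among 18 BMP members 6 rose and 2 fell. The median log2 difference was 0.02 for the FGF members, 0.14 for the BMP members and -0.46 for the Hedgehog members. The plot of differences shows the 3 pathways side by side.

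**Figure D1:**
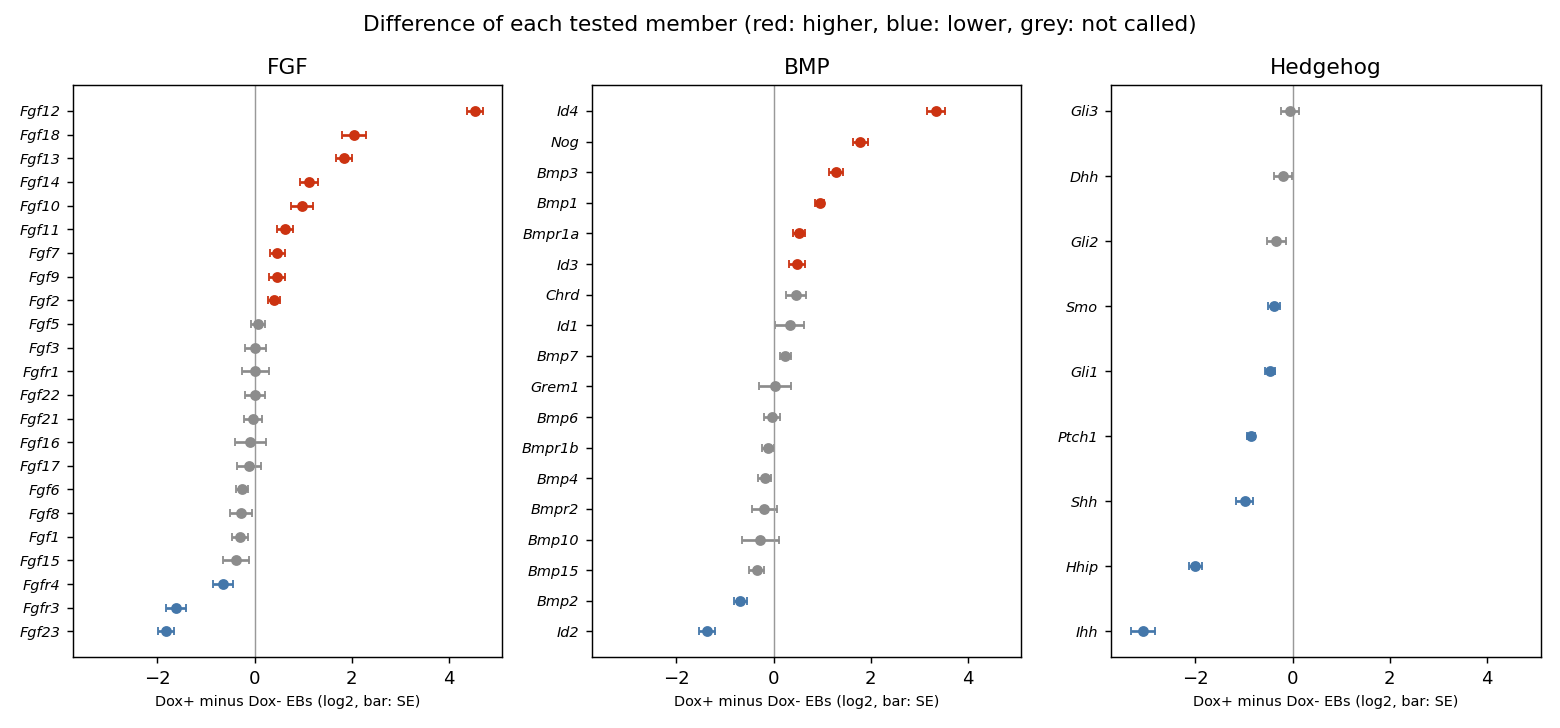
Log2 level in Dox+ EBs minus that without Dox for the 50 tested members, in 3 panels for FGF, BMP and Hedgehog genes, with bars for the standard error from limma and colours for the call (adjusted p under 0.05). The differences run from -3.08 for Ihh to 4.53 for Fgf12, and every point of the Hedgehog panel lies below 0.

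Markers of several cell types moved with the same comparison. All 10 tested epithelium markers fell with Dox (summed level 592 to 616 in Dox- and 173 to 206 in Dox+ EBs), as did all 8 liver markers (528 to 538 against 53.4 to 63.1), all 7 tested heart and muscle markers (156 to 219.6 against 13.6 to 13.8) and 11 of 17 mesenchyme markers, of which 3 rose (916 to 964 against 408 to 410.2). Of 11 neuronal markers 10 rose and none fell, 7 of them (Dcx, Stmn2, Elavl3, Elavl4, Map2, Nefl and Nefm) being at background on both Dox- arrays, and the summed level of the 8 measured on all arrays was 3.70 to 3.89 in Dox- and 152 to 167 in Dox+ EBs. All 11 endocrine markers rose (7.34 to 7.37 against 473 to 550.4), 5 of 7 acinar markers rose and none fell (3.84 to 3.94 against 21.0 to 25.6), and of 8 endothelium markers 3 rose and 1 fell (58.6 to 61.4 against 60.9 to 65.0). The part of these shifts in the members' differences was not tested, and in bulk RNA fewer cells of a type and less RNA per cell cannot be told apart.

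Of the 3 Hedgehog ligands Ihh and Shh fell with Dox. Indian hedgehog, Ihh, was at 19.7 and 17.4 without Dox and at 2.19 on the 1 Dox+ array that measured it. It was at background in bTC6 cells and islets and at 0.417 and the floor in the E15.5 pancreas. The Dox+ level was 8.46-fold lower than without Dox (log2 difference -3.08, SE 0.25, adjusted p = 7.71e-06), with the spot of Dox+ replicate 1 left out as contaminated, and the log2 difference was -3.48 with it kept. Sonic hedgehog, Shh, read 3.21 and 2.63 without Dox and 1.67 and 1.28 with Dox, 1.98-fold lower by limma (adjusted p = 0.000948). It was at background on all 6 reference arrays, so Dox+ EBs, although lower than Dox- EBs, were at least 4.66-fold above bTC6 cells and at least 5.43-fold above islets and E15.5 pancreas. A probe shared by Shh and another symbol, which is not a member probe, fell 4.07-fold with Dox by limma (adjusted p = 1.6e-05). Desert hedgehog, Dhh, was low everywhere, above background on 1 Dox- array at 0.352, on 1 islet array at 0.366 and on both pancreas arrays at 0.524 and 0.468, and did not pass the test between the EB groups (adjusted p = 0.450).

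The genes that receive the Hedgehog signal fell as well. Hhip, the secreted decoy that binds Hedgehog ligands, read 7.70 and 8.64 without Dox, 2.17 and 1.91 with Dox, 1.10 and 1.26 in bTC6 cells, at the floor in the islets, and 1.52 and 1.41 in the E15.5 pancreas. The EB groups differed 4.01-fold (log2 difference -2.00, SE 0.13, adjusted p = 6.43e-07). In the order of Hhip levels, bTC6 cells and E15.5 pancreas were the neighbours that did not pass the test (adjusted p = 0.0568), while Dox+ EBs were above both. Ptch1, the receptor, read 62.4 and 56.4 without Dox and 32.9 and 32.7 with Dox, 1.81-fold lower by limma (adjusted p = 4.24e-05). Its other probe also read lower with Dox, 1.38 and 1.17 against 0.866 and 1.04, and did not pass the test (adjusted p = 0.0575). Smo, the transducer that PTCH1 restrains, went from 11.1 and 10.3 to 8.41 and 7.93, 1.31-fold lower by limma (adjusted p = 0.0215), a call lost without Dox+ replicate 1, Dox+ replicate 2 or Dox- replicate 1 (log2 difference -0.45 to -0.33 over the alternatives).

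Of the 3 transcription factors of the pathway only Gli1 passed the test. Gli1, a target and activator of the pathway, read 7.42 and 7.77 without Dox and 5.59 and 5.46 with Dox, 1.37-fold lower by limma (adjusted p = 0.00533). Gli2, the main activator, read 0.904 and 0.929 against 0.781 and 0.676 (adjusted p = 0.190), and Gli3, largely a repressor, 0.560 and 0.762 against 0.671 and 0.588 (adjusted p = 0.868). Neither passed the test, and for Gli3 the groups overlap. Of the 6 Hedgehog members that fell, Ihh, Hhip, Shh and Gli1 passed under every alternative that gave a value.

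**Figure D2:**
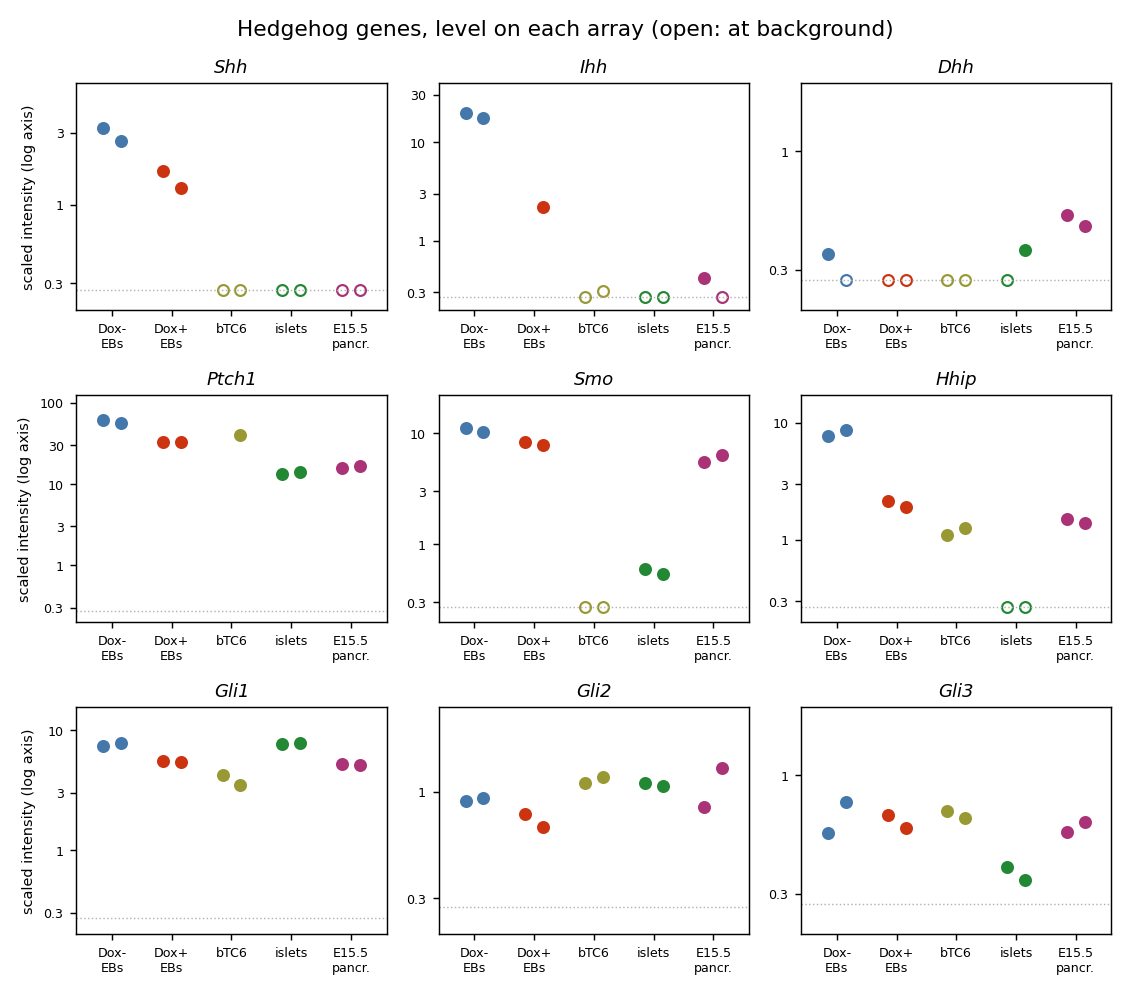
Level of 9 Hedgehog genes on each array, on a log scale where 1 is the array median, for Dox- EBs, Dox+ EBs, bTC6 cells, islets and pancreas (each point is 1 array, open points were at background, the dotted line is the floor of 0.27). Dox+ points lie below Dox- points for Ihh, Shh, Hhip, Ptch1, Smo and Gli1, and Shh is open on all 6 reference arrays.

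Other genes of the Hedgehog pathway, among them genes that it induces and genes that restrain it, moved both ways. In a list of 18 further tested pathway genes 9 were higher with Dox, 4 were lower and 5 were not called (median log2 difference 0.28). Over all probes 20.7% were called higher and 22.5% lower, so the share of the list that fell is near the background. Foxf1, a forkhead gene induced by Hedgehog in gut mesenchyme, fell 2.69-fold, 9.96 and 10.1 giving way to 3.98 and 3.49 (adjusted p = 2.02e-05). Gas1, a co-receptor, rose 2.57-fold, 3.82 and 3.93 giving way to 9.95 and 9.93 (adjusted p = 1.21e-06), and Scube2, which helps to release Hedgehog ligands, rose 2.66-fold (adjusted p = 0.000196) with 1 Dox- array at background. Gpr161, a receptor of the cilium that restrains the pathway, rose 1.70-fold, and Scube1 and Hhat, the enzyme that attaches palmitate to the ligands, fell 1.26-fold and 1.31-fold.

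All 4 FGF homologous factors rose with Dox. Fgf12 was at background without Dox, at 7.53 and 7.58 with Dox, at 26.4 and 34.5 in bTC6 cells, at 12.0 and 11.0 in the islets and at 1.48 and 1.78 in the E15.5 pancreas. It was at least 23.1-fold higher with Dox (log2 difference 4.53, SE 0.17, adjusted p = 9.76e-09), the largest difference of any member, and its other probe also rose (log2 difference 1.61, adjusted p = 1.14e-05). Fgf12 differed between every pair of the 5 groups, in the order bTC6 cells, islets, Dox+ EBs, E15.5 pancreas and Dox- EBs. The study lists Fgf12 among genes it chose on these same arrays, so its rise is not independent evidence.

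The other 3 homologous factors had other profiles over the groups. Fgf13 read 2.07 and 2.51 without Dox, 8.59 and 7.78 with Dox, at background in bTC6 cells, 0.726 and 0.759 in the islets and 0.899 and 0.935 in the E15.5 pancreas. It rose 3.59-fold with Dox (log2 difference 1.84, SE 0.17, adjusted p = 9.09e-06), so that Dox+ EBs were 11.0-fold above islets and 8.92-fold above E15.5 pancreas. Fgf14 was at the floor on both Dox- arrays and 0.639 and 0.544 with Dox, at least 2.15-fold higher by limma (adjusted p = 0.00066), and at 0.911 and 1.18 in bTC6 cells. Fgf14 thus rose to a level below the array median. Fgf11 went from 4.53 and 4.40 to 6.10 and 7.79, 1.54-fold higher by limma (adjusted p = 0.00905), against 0.564 and 0.752 in bTC6 cells and 0.573 and 0.599 in the islets. The call of Fgf11 was lost without Dox+ replicate 2, without Dox- replicate 2 and with only the EB arrays, and its other probe, with a log2 difference of 0.44, did not pass the test (adjusted p = 0.201). The neuronal markers moved in the same direction, and their part was not tested.

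Of 13 tested secreted FGF ligands 5 rose with Dox and none fell. Fgf18, a ligand of bone and lung growth, read 0.706 and 0.826 without Dox, 3.02 and 3.28 with Dox, 3.11 and 3.73 in the E15.5 pancreas, and near or at background in bTC6 cells and islets. It rose 4.12-fold (log2 difference 2.04, SE 0.25, adjusted p = 8.16e-05), and the Dox+ and pancreas levels did not differ by the test (log2 difference -0.11, SE 0.25, adjusted p = 0.735). Fgf10, the mesenchymal ligand of pancreatic progenitors, read 0.751 and 0.828 without Dox and 1.60 and 1.50 with Dox, 1.97-fold higher by limma (adjusted p = 0.00615, and 0.0535 without Dox+ replicate 1), against 0.655 and 0.460 in the E15.5 pancreas. Fgf7, another ligand of mesenchyme that acts on epithelium, was measured above background in EBs only, at 1.68 and 1.98 without and 2.66 and 2.38 with Dox, 1.38-fold higher by limma (adjusted p = 0.0285). The Fgf7 call passed in 15 of 20 alternatives and was lost without Dox+ replicate 1, without Dox- replicate 1, with a floor of 0.1, with normexp and quantile normalization, and with only the EB arrays. The mesenchyme markers fell on balance, although some rose, and their part in the levels of these mesenchymal ligands was not tested.

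The last 2 secreted ligands with a call were close to the threshold. Fgf9, expressed by epithelia and mesothelia, read 1.53 and 1.47 without Dox, 2.18 and 1.93 with Dox and 4.58 and 4.04 in the islets. Its rise of 1.37-fold (adjusted p = 0.0483) passed in 7 of 21 alternatives. The other Fgf9 probe was at background on the 4 EB arrays and at 0.398 and 0.412 in the islets. Fgf2, the ligand that was itself added as bFGF, was at the floor on both Dox- arrays and 0.358 and 0.355 with Dox, at least 1.30-fold higher by limma (adjusted p = 0.0285), a call lost without any 1 of the 4 EB arrays and with a floor of 1. The other 8 tested secreted ligands, Fgf1, Fgf3, Fgf5, Fgf6, Fgf8, Fgf16, Fgf17 and Fgf22, had log2 differences of -0.30 to 0.07 with no call, although the other Fgf3 probe rose (log2 difference 0.48, adjusted p = 0.021).

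Among the endocrine FGFs, Fgf23 was the single call. Fgf23, known as the phosphate hormone of bone, read 1.73 and 1.66 without Dox and 0.438 and 0.525 with Dox, 3.53-fold lower (log2 difference -1.82, SE 0.17, adjusted p = 8.88e-06). This probe carries an EST accession, and the probe with the mRNA accession of Fgf23 was at background on all 10 arrays, so the 2 probes do not agree on whether the gene was measurable. Fgf21, a metabolic hormone of liver and pancreas, gave no EB signal above background and was at 1.83 and 1.59 in the islets. Fgf15, an intestinal hormone, was at 0.613 and 0.610 without Dox and at 0.469 on the 1 Dox+ array that measured it (adjusted p = 0.282).

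Of the 3 receptors with a probe of their own 2 fell and none rose. Fgfr3 read 2.95 and 3.26 without Dox, 1.04 and 0.983 with Dox, 1.72 and 2.04 in the E15.5 pancreas and 0.430 and 0.395 in the islets. It fell 3.07-fold with Dox (log2 difference -1.62, SE 0.20, adjusted p = 8.78e-05), to a level below that of E15.5 pancreas (adjusted p = 0.00304). Fgfr4, a receptor of endoderm and liver, went from 1.05 and 1.34 to 0.847 and 0.678, 1.57-fold lower by limma (adjusted p = 0.0317), a call kept in 11 of 20 alternatives and lost without Dox+ replicate 1, Dox+ replicate 2, Dox- replicate 2 or either islet array. Fgfr1, the receptor of mesenchyme, read 6.99 and 11.6 without Dox and 10.2 and 8.14 with Dox, where the groups overlap (adjusted p = 1). Its level was 0.690 and 1.29 in bTC6 cells. The probe shared by Fgfr2 and Parva, which is not a member probe, fell 3.44-fold with Dox by limma (adjusted p = 9.09e-06). The epithelium and liver markers fell beside Fgfr3 and Fgfr4, and their part was not tested.

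**Figure D3:**
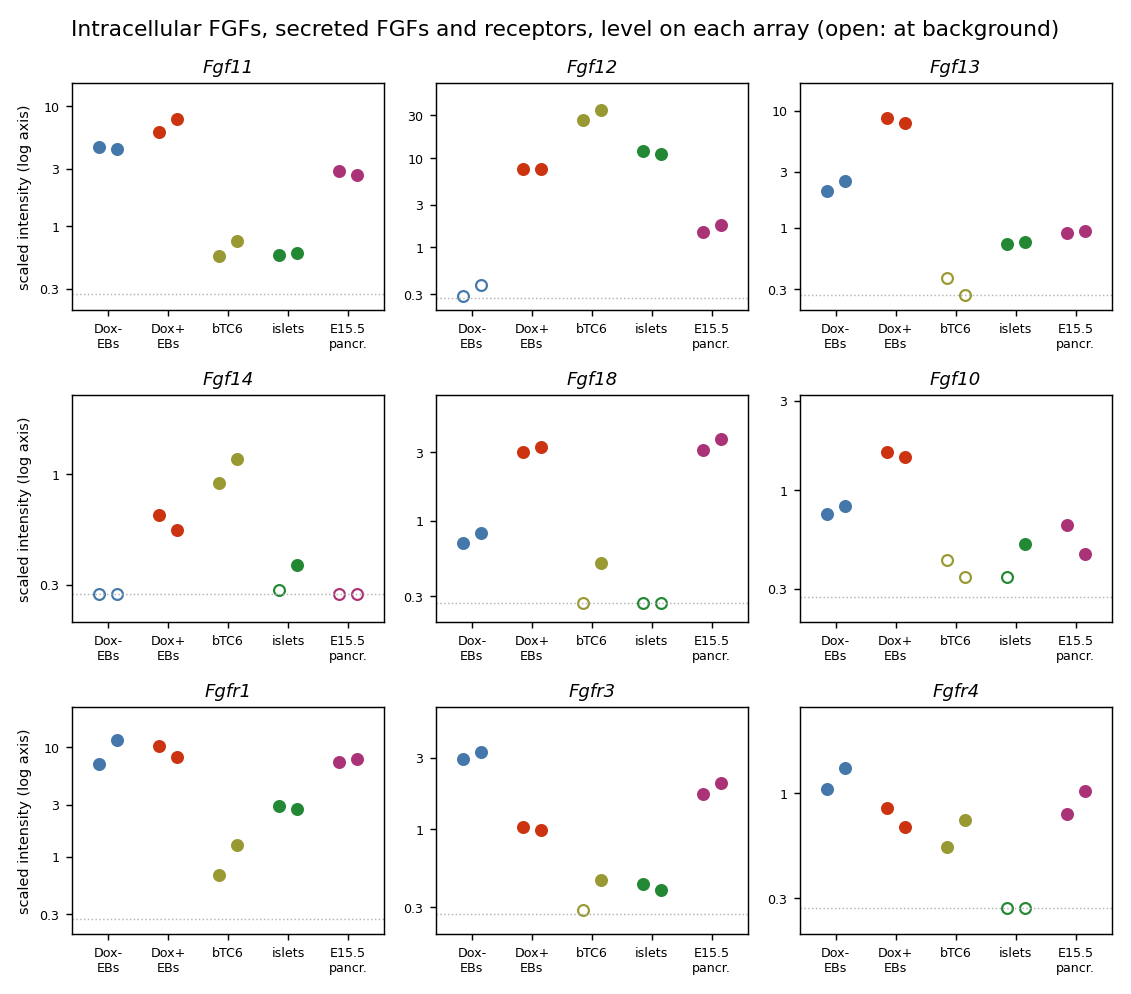
Level of 4 FGF homologous factors (Fgf11 to Fgf14), 2 secreted ligands and 3 receptors on each array, on a log scale where 1 is the array median, by group (each point is 1 array, open points were at background, the dotted line is the floor of 0.27). Dox+ points lie above Dox- points for the homologous factors, Fgf18 and Fgf10, and below them for Fgfr3 and Fgfr4, and Fgf12 is open without Dox.

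Further FGF pathway genes moved both ways. Of 20 tested genes 8 rose, 5 fell and 7 were not called (median log2 difference 0.12). Over all probes 20.7% were called higher and 22.5% lower, so the share of these genes that fell is near the background. Etv1 and Etv4, ETS factors that FGF signalling induces, rose 5.90-fold and 2.88-fold, Etv1 from 3.38 and 3.05 to 18.6 and 19.3 (adjusted p = 6.19e-09) against 79.6 and 78.9 in bTC6 cells. Flrt1, an adhesion protein that binds FGF receptors, was at least 3.34-fold higher. Fgfbp1, a carrier that frees FGFs from the matrix, fell 8.80-fold, 4.15 and 4.91 giving way to 0.501 and 0.525 (adjusted p = 5.52e-08). The feedback inhibitors Spry3 and Spry1 fell 3.95-fold and 1.50-fold.

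Of the 7 tested BMP ligands 1 rose and 1 fell, and the antagonist Nog rose. Nog read 0.848 and 0.902 without Dox, 2.93 and 3.08 with Dox, 0.507 and 0.533 in the E15.5 pancreas, and at or near background in bTC6 cells and islets. It rose 3.44-fold (log2 difference 1.78, SE 0.15, adjusted p = 5.41e-06) and stood 5.78-fold above E15.5 pancreas. Grem1 read 1.01 and 1.15 against 1.19 and 1.03 (adjusted p = 0.983), and Chrd was at background without Dox and 0.477 and 0.359 with Dox (adjusted p = 0.104). The 3 antagonists thus gave 1 call.

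Bmp4, the ligand that was also added to the medium, was among the EB transcripts that separated them from the references. It read 17.0 and 21.3 without Dox, 17.2 and 16.3 with Dox, at the floor in bTC6 cells, 0.649 and 0.575 in the islets and 2.46 and 2.29 in the E15.5 pancreas. The EB groups did not differ by the test (log2 difference -0.18, SE 0.13, adjusted p = 0.297). Bmp2, its close relative, fell from 8.72 and 8.52 to 5.74 and 5.02, 1.61-fold lower by limma (adjusted p = 0.0024), and its other probe fell 2.32-fold. Bmp3, which counters other BMPs, rose from background to 0.682 and 0.756, at least 2.44-fold higher by limma (adjusted p = 3.87e-05), although its other probe stayed at the floor in all 4 EB samples. Bmp7, a ligand of epithelia, was at 12.6 on both Dox- arrays and 15.2 and 14.6 with Dox (log2 difference 0.24, adjusted p = 0.102), while its other probe had the opposite sign (log2 difference -0.15, adjusted p = 0.682). The ligands Bmp4, Bmp6, Bmp7, Bmp10 and Bmp15 had no call.

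Bmp1, a metalloprotease named with the BMPs that processes collagen and chordin, read 17.6 and 16.8 without Dox and 33.8 and 32.6 with Dox. It rose 1.93-fold (log2 difference 0.95, SE 0.09, adjusted p = 1.69e-05), against 51.0 and 56.2 in bTC6 cells and 16.8 and 17.0 in the E15.5 pancreas. Of the receptors, Bmpr1a rose 1.43-fold, 0.893 and 0.934 giving way to 1.37 and 1.25 (adjusted p = 0.00556). Bmpr1b read 5.81 and 6.53 against 5.91 and 5.52 (adjusted p = 0.541) and Bmpr2 1.08 and 1.27 against 1.15 and 0.916 (adjusted p = 0.624), with overlapping groups.

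The 4 Id genes, inhibitors of basic helix-loop-helix factors, went different ways. Id4 was at the floor without Dox, at 2.75 and 2.72 with Dox, at 0.838 and 0.761 in bTC6 cells, at or near background in the islets and at 0.741 and 1.06 in the E15.5 pancreas. It was at least 9.97-fold higher with Dox (log2 difference 3.34, SE 0.19, adjusted p = 2.54e-07), and it too is on the list the study chose from these arrays. Id2 fell from 135 and 133 to 55.4 and 47.9, 2.59-fold lower (log2 difference -1.37, SE 0.17, adjusted p = 7.76e-05), against 5.43 and 5.05 in the islets and 28.4 and 28.8 in the E15.5 pancreas. Both promoters hold the GGCGCC run shown above.

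Id1 and Id3 lay between these extremes. Id1 read 8.24 and 8.83 without Dox, 10.5 and 11.0 with Dox and 9.10 and 21.7 in bTC6 cells. It did not pass the test between the EB groups (log2 difference 0.33, adjusted p = 0.416), but passed without bTC6 replicate 1 (adjusted p = 0.0174), without bTC6 replicate 2 (0.0184) and with the EB arrays alone (0.0392). Id3 went from 18.9 and 17.7 to 27.7 and 23.5, 1.39-fold higher by limma (adjusted p = 0.0356), a call that passed in 8 of 21 alternatives and was lost without any 1 of the EB, islet or pancreas arrays. In bTC6 cells Id3 stood at 73.6 and 111.

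**Figure D4:**
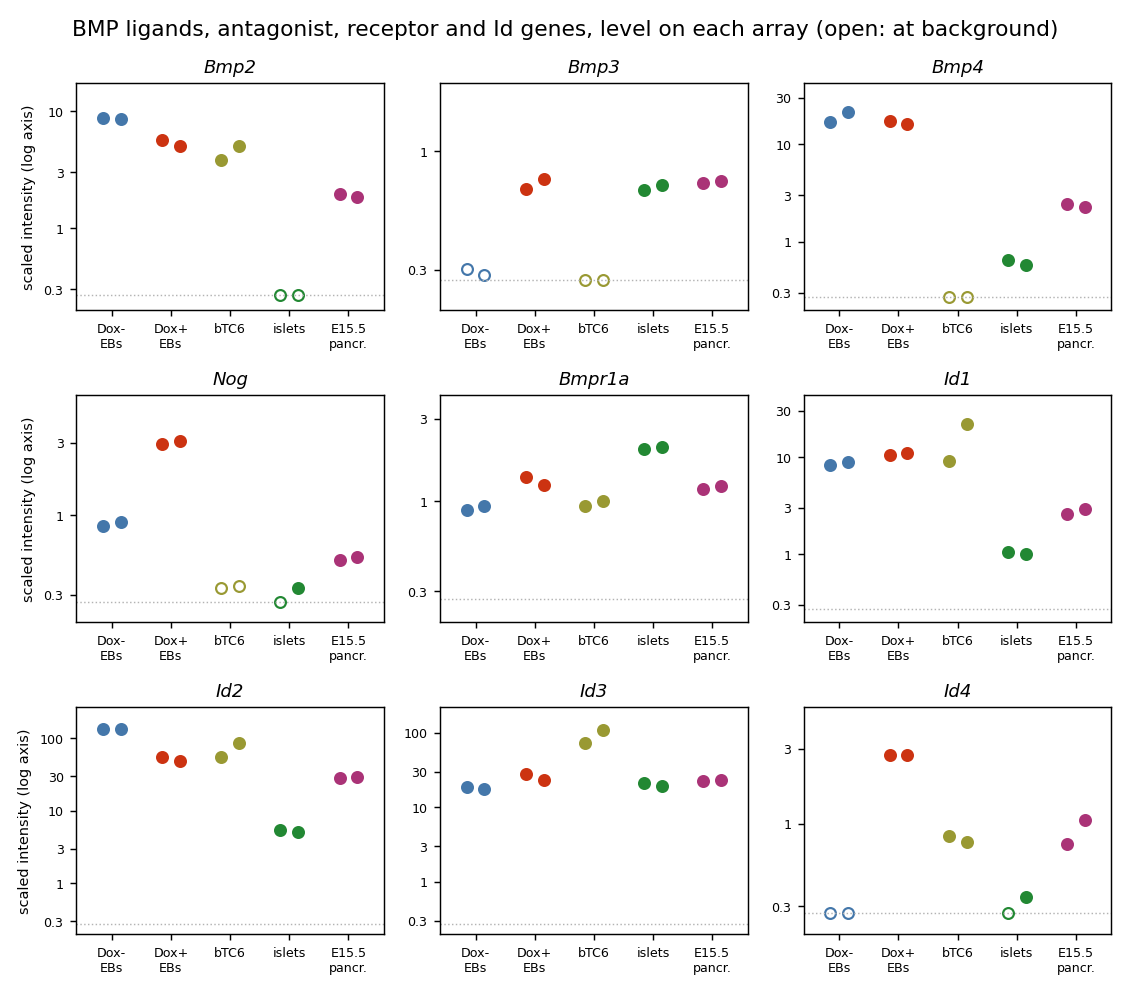
Level of 3 BMP ligands, the antagonist Nog, the receptor Bmpr1a and Id1 to Id4 on each array, on a log scale where 1 is the array median, by group (each point is 1 array, open points were at background, the dotted line is the floor of 0.27). Dox+ points lie above Dox- points for Nog, Bmp3 and Id4 and below them for Id2 and Bmp2, and Bmp4 is high in both EB groups and open in bTC6 cells.

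In the list of further BMP pathway genes 11 of 29 tested rose, 5 fell and 13 were not called (median log2 difference 0.02). Over all probes 20.7% were called higher and 22.5% lower. Gdf6, a BMP family ligand, rose 29.1-fold, 0.898 and 1.04 giving way to 28.9 and 27.4 (adjusted p = 5.89e-10), against 2.73 and 2.58 in the E15.5 pancreas and background in bTC6 cells and islets. Gdf6 too is on the list the study chose from these arrays, so its rise is not independent evidence. Cer1, a secreted antagonist of BMP and Nodal, rose 35.5-fold, to 14.7 and 11.5 (adjusted p = 1.37e-07), with 1 Dox- array at 0.495 and the other at background. Rgmb, a BMP co-receptor, rose 2.70-fold. Acvrl1, a receptor of endothelium, fell 5.11-fold, 4.07 and 5.70 giving way to 0.814 and 1.09 (adjusted p = 2.35e-06), and Msx2, a BMP target, fell 1.55-fold. Bmp8a fell 1.63-fold.

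Against the references, more members were higher with Dox than lower in all 3 comparisons, except among the members above background on all 10 arrays (6 higher and 7 lower than in bTC6 cells, 8 and 8 for islets, 5 and 6 for E15.5 pancreas). These comparisons share the Dox+ arrays, and since EB arrays, pancreas arrays, and bTC6 and islet arrays have slide numbers in separate ranges, the batch of arrays cannot be told apart from the tissue. Of 50 members 22 were higher and 12 lower than in bTC6 cells (25.5% and 37.4% of all probes), 27 higher and 12 lower than in the islets (36.4% and 31.6%), and 21 higher and 9 lower than in the E15.5 pancreas (33.1% and 26.9%). The median log2 difference of the members was 0.34, 0.63 and 0.25, against -0.11, 0.05 and 0.07 over all probes. The summed level of the 17 mesenchyme markers was 408 to 410.2 with Dox, 44.2 to 46.4 in bTC6 cells, 134 to 135 in the islets and 644 to 645 in the E15.5 pancreas, and its part in these differences was not tested.

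Against bTC6 cells the largest differences were those of Bmp4 (at least 53.3-fold higher), Bmp7 (at least 47.4-fold), Smo (at least 26.0-fold), Fgf13 (at least 23.9-fold) and Fgf11 (10.6-fold). Bmp4, Smo, Fgf13, Fgf7 and Shh were at background in this cell line, as was the Bmp7 probe used. The other Bmp7 probe read 2.59 and 2.32 with Dox and 0.450 and 0.846 in bTC6 cells, a smaller gap, and the other Fgf11 probe, at 1.82 and 2.33 with Dox and 1.48 and 2.76 in bTC6 cells, had overlapping groups and no call. On the other side, Fgf12 was 4.00-fold lower with Dox, Fgf22 3.68-fold, Id3 3.54-fold, Fgf1 2.05-fold and Bmp15 1.95-fold. Fgf22, a presynaptic organiser, was near the floor in EBs and at 0.782 and 1.29 in bTC6 cells. Bmp15, best known from oocytes, was at 0.525 and 0.527 with Dox and at 1.03 and 1.02 in bTC6 cells, and its other probe was at background on all 10 arrays.

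Against islets, Bmp4 was 27.4-fold higher with Dox, Bmp2 at least 19.9-fold, Smo 14.4-fold, Fgf11 11.8-fold and Fgf18 at least 11.7-fold. Id1 and Id2 were also 10.5-fold and 9.84-fold higher. The other Fgf11 probe, at 1.58 and 1.47 in the islets, again gave no call, and Bmp7, called higher than in islets at the probe used, was called lower at its other probe (4.95 and 3.83 in the islets). In the other direction Fgf21 was at least 6.31-fold lower, Bmpr1b 3.92-fold, Fgf23 3.17-fold, Fgf17 2.30-fold and Fgf9 2.10-fold. Bmpr1b, a type I BMP receptor, was at 22.1 and 22.7 in the islets and between 5.08 and 6.65 on the other 8 arrays. The islet arrays also carried strong acinar signal (6 markers measured on all arrays, summed level 1311 to 1542, against 21.0 to 25.6 with Dox and 777 to 799.9 in the E15.5 pancreas), whose part was not tested.

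Against E15.5 pancreas, Fgf7 was at least 9.33-fold higher with Dox, Fgf13 8.92-fold, Bmp4 7.04-fold, Ihh 6.54-fold and Nog 5.78-fold, and all 4 homologous factors were higher at the probe used, although the other Fgf11 probe, at 1.69 and 1.53 in the E15.5 pancreas, gave no call. Bmp7 was 3.08-fold lower, at 47.8 and 44.0 in the E15.5 pancreas, Fgf23 2.97-fold, Fgf5 2.39-fold, Fgf1 1.99-fold and Fgfr3 1.85-fold. Fgf5, at 2.79 and 2.52 with Dox, was at 6.02 and 6.64 in the E15.5 pancreas, but its other probe was at background on all 10 arrays. Smo and Hhip were within 1.38-fold and 1.39-fold of the pancreas level, above it in both cases. The Hhip call was lost without Dox+ replicate 1 and without pancreas replicate 2, and the Smo call without pancreas replicate 1.

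Between the references themselves, islets were lower than E15.5 pancreas for more members than they were higher. In islets 10 of 50 members were higher and 20 lower, 20.0% and 40.0%, where 32.5% of all probes were called in each direction. Bmp7 was 18.9-fold lower in the islets (its other probe read 4.95 and 3.83 against 20.7 and 22.6, a smaller gap), Fgf18 at least 12.6-fold, Smo 10.4-fold, Bmp2 at least 7.07-fold and Id2 5.47-fold, and all 3 measured FGF receptors were lower. Fgf12 was 7.09-fold higher in the islets, Fgf21 at least 6.31-fold, Bmpr1b 4.31-fold, Fgf9 2.61-fold and Fgf17 2.32-fold. Fgf17 was at 0.774 and 0.721 in the islets and at 0.311 and 0.333 in the E15.5 pancreas. The map of all members shows these groups of genes.

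**Figure D5:**
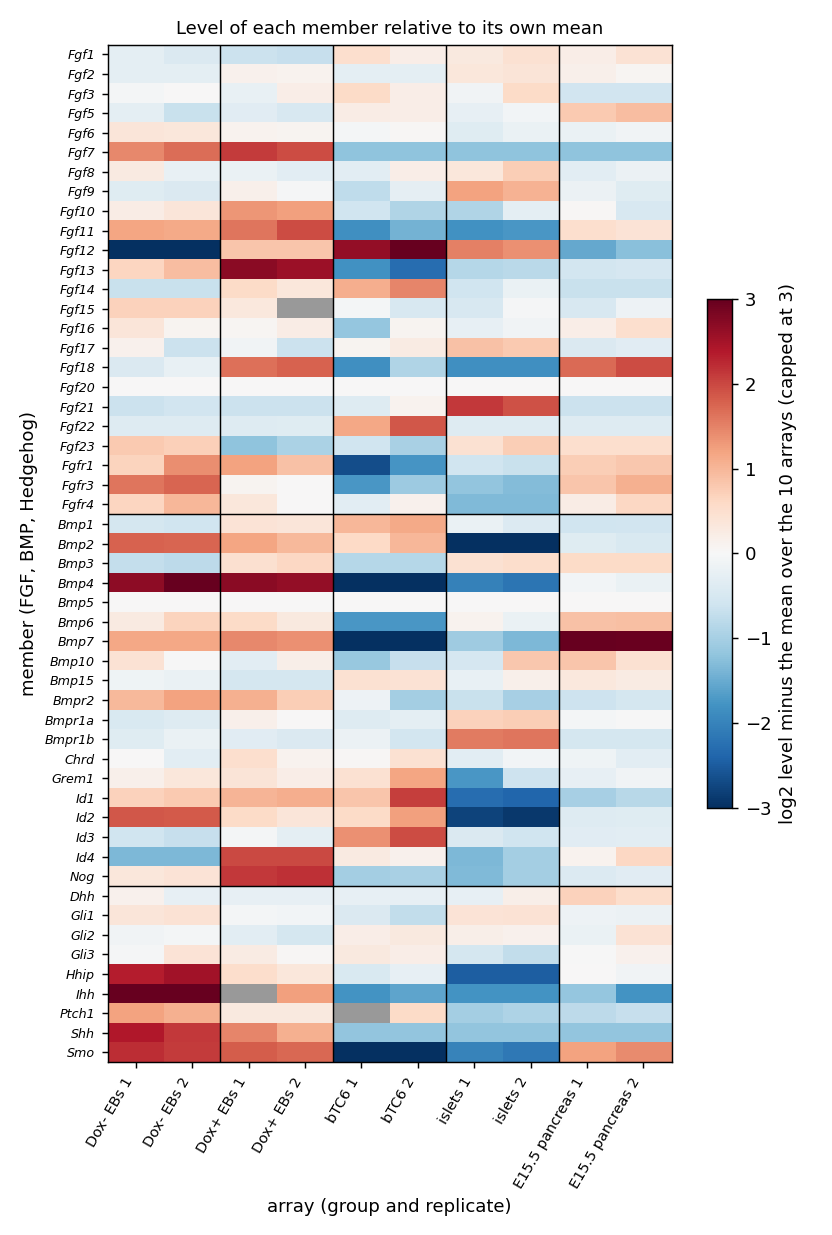
Log2 level of each of the 52 members on each of the 10 arrays minus its own mean over the arrays, with rows by pathway (FGF, BMP, Hedgehog), columns by group and replicate, colours capped at 3 and grey for spots left out. Bmp4, Ihh, Shh and Hhip are high in EBs, Fgf13 and Nog peak with Dox, Bmp7 peaks in the E15.5 pancreas, and Fgf20 and Bmp5 are flat at background.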

How the data were processed

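Total RNA of 10 samples was measured on CodeLink mouse whole genome arrays. The deposited values are intensities: per the file headers, CodeLink Expression Analysis (4.1.0.29054) took the mean intensity of a spot, less the median of its surrounding background, and the authors' software then scaled it by the median of the array's 34967 discovery probes. These values were used as deposited. The GeneSpring step of the methods was not repeated.

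Masked, contaminated and irregular spots were set missing, saturated spots were kept, and the 1260 control spots were left out. Probes were named by the deposited platform annotation, and all 52 member gene IDs gave the same symbol in a RefSeq table (GRCm38.p6). Log2 was taken after a floor of 0.27. A probe entered the test where both arrays of some group were above background (28109 probes), and these were fitted with limma 3.58.1 in R 4.3.3 (1 mean per group, trend and robust eBayes, 5 residual degrees of freedom, median prior 5.22). The fit was tested on simulated data. Where a bound from the lowest signal above background exceeded the fold of the floored levels, that fold is printed. No member was saturated on an array. Net signals had a median of 1.66 to 2.63 times their background per array, and 2 arrays a group limit the precision.

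The members and lists were chosen with earlier results of these data known. Array values are given for members past the threshold with Dox (up to 12 each way), the highest member of each class in each group, Shh, Ihh, Bmp4, Fgf2 and the Id genes, and the 5 largest differences each way elsewhere, and of other pathway genes up to 3 each way with the smallest adjusted p. Other members named were chosen after their values were seen. Alternatives were quantile normalization, normexp with offset 50 and quantile normalization, floors of 0.1 and 1, no filter or a filter on all 10 arrays, flagged spots kept, only the arrays compared, plain eBayes, the replicate block, another probe of a gene, and leaving out each array. Figures were drawn with Python 3.11.15 and matplotlib 3.10.9.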

Additional observations from a re-analysis of the deposited data

How the results depend on the processing

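Over 813 combinations of a named member and an alternative in the comparison of Dox+ with Dox- EBs, 735 kept the direction and the side of the threshold, 58 lost the call, 5 gained one and 15 turned the sign, and none of the 15 was a called member. Only probes above background on all 10 arrays left 5 members higher and 3 lower with Dox. They left 6 and 7 against bTC6 cells, 8 and 8 against islets, and 5 and 6 against E15.5 pancreas. For islets against E15.5 pancreas 6 and 7 were left. With this filter Dox+ EBs were no longer higher for more members than lower in any of the 3 reference comparisons. Fewer members are tested, since the filter takes out those at background on any array. Among these are Bmp4, Smo, Fgf13, Nog, Id4 and Shh, which were called higher with Dox than in all 3 references. A floor of 1 left 5 members lower than in bTC6 cells, 7 than in islets, 4 than in E15.5 pancreas, and 13 lower in islets than in E15.5 pancreas, and took away the calls of Bmp3, Fgf14, Fgf2, Fgf9, Id3 and Fgfr4 with Dox. Leaving out 1 array gave 10 to 16 members higher and 8 to 11 lower with Dox. The signs that turned belong to Bmp7 (-0.15 at its other probe), Fgf3 (-0.035 with normexp and quantile normalization, -0.043 with quantile normalization) and Fgfr1 (-0.049 with both), and without 1 array to Fgf17 (-0.49 to 0.27), Fgf3 (-0.19 to 0.23), Fgf5 (-0.13 to 0.27), Fgfr1 (-0.35 to 0.38) and Grem1 (-0.062 to 0.14), all log2 differences with no call. The cause was not tested. Replicate numbers do not pair the samples (correlation of replicate differences between groups -0.071 to 0.065), and with the replicate block 13 members were higher and 11 lower with Dox, without Fgf9 and Id3. Quantile normalization moved the median of all probes against bTC6 cells from -0.11 to 0, with 25 members higher and 9 lower there. Id2 and Ptch1 went from called lower to called higher than in bTC6 cells, as they did with normexp and quantile normalization. Levels near 0.27 are limited by the background.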
